A study of Homo sapiens with 24 samples.

Results

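The interval from 8 to 24 hr of differentiation in control H9 human embryonic stem cells (hESCs) was followed in 6 Affymetrix human transcriptome arrays, 3 of shNS cells at 24 hr and 3 of shNS cells at 8 hr, out of 24 arrays in the series. The arrays of each time were taken by their labels, and 23781 transcript clusters that carry exactly 1 gene symbol were compared between the 2 times. H9 is an established pluripotent line, grown without feeders in mTeSR1 medium. All cells of the series carried a lentiviral short hairpin RNA, either one that silences no gene (shNS) or one against the transcription factor RUNX1 (shRUNX1), and were selected in puromycin. The shNS cells used here were differentiated in serum-containing medium for 24 hr or 8 hr, and undifferentiated shNS cells (0 hr) set the starting level for each gene. The shRUNX1 cells at 24 hr and 8 hr served as a second arm, and shNS cells at 72 hr are given where a gene's later level is of interest. Each group held 3 arrays of bulk cultures, so fewer cells of a type and less RNA per cell cannot be told apart. The submitters lettered the shNS experiments A, B and C and the shRUNX1 experiments C, D and E, so that only letter C occurs in both arms.

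When hESCs are moved from defined medium into serum, growth factors and lysophospholipids act on receptors that turn on immediate early genes, actin regulation and NF-kB. Immediate early genes such as EGR1 are transcribed without new protein synthesis, and many of them encode factors or RNA-binding proteins that end the response they belong to. In NF-kB signaling, the inhibitor NFKBIA and the ubiquitin-editing enzyme TNFAIP3 are themselves targets of the pathway and hold it back. Cells that leave pluripotency also change adhesion, and secreted matrix proteins, integrins and TGFB ligands mark the mesenchymal side of the epithelial to mesenchymal transition (EMT).

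Promoter sequences are shown for genes of both kinds that the results below turn on, genes that rose within 8 hr and then turned back and 1 that kept rising. Each is the 250 bases upstream of the gene's start in RefSeq (GRCh38.p14), written 5′ to 3′ on the strand of the gene. They lie at chr5:138465229-138465478 for EGR1, chr4:73740319-73740568 for CXCL8, chr14:35404750-35404999 on the minus strand for NFKBIA, chr6:137867009-137867258 for TNFAIP3 and chr1:218345086-218345335 for TGFB2. Capitals mark matches, on either strand, to the SRF motif (CC, any base, TAT, any pair of bases, GG) in EGR1, to the NF-kB motif GGNNNTTCC in CXCL8, NFKBIA and TNFAIP3, to the AP-1 motif TGANTCA in CXCL8 and to the TEAD motif GGAATG in TGFB2. None of the marked matches overlap each other.
EGR1: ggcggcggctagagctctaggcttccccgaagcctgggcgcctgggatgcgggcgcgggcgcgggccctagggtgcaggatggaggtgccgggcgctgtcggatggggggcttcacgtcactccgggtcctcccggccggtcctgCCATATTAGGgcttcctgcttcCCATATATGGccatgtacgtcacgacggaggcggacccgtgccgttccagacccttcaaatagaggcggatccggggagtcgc
CXCL8: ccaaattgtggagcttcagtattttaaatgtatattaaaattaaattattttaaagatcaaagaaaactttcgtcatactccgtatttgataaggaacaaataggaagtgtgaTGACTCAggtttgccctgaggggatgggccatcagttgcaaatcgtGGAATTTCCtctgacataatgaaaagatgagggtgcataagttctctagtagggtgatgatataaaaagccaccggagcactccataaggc
NFKBIA: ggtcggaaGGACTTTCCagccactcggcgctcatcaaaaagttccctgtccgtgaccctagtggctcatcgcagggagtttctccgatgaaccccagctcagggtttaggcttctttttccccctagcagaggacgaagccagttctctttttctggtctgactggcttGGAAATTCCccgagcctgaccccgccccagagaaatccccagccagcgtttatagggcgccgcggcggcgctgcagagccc
TNFAIP3: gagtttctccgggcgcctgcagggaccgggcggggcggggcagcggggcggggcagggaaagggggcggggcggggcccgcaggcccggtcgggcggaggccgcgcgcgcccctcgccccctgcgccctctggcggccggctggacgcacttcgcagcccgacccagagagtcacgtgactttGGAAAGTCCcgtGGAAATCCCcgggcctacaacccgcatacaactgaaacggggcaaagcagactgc
TGFB2: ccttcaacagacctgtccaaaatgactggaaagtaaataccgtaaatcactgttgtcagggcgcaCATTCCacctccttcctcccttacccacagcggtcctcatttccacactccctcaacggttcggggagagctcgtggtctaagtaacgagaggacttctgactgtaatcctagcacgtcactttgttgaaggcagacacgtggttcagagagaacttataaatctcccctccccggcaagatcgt
EGR1 held 2 SRF matches, NFKBIA and TNFAIP3 held 2 NF-kB matches each, and CXCL8 held 1 NF-kB and 1 AP-1 match. The 5 genes shown do not stand for their classes. In windows not shown, NFKB1 and ZFP36, which turned back, held 1 NF-kB match each, and ZFP36 also held 1 TEAD match. TNC, which kept rising, held 2 NF-kB matches, while ANXA1, MYOF and CAV1, which also kept rising, held no match. Of 27305 promoters of this length, 1.03% held the SRF motif, 17.1% the NF-kB motif, 6.6% the AP-1 motif and 11.9% the TEAD motif. The RUNX motif TGTGGT, found in 10.9% of promoters, had no match in the 5 windows shown. Sites outside these 250 bases, or of another spelling, would not be seen. For TGFB2 the study searched a longer stretch for RUNX1 sites, so this window does not bear on its result.

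From 8 to 24 hr, control cells lost most of the early rise of EGR1 and of the NF-kB feedback genes NFKBIA and TNFAIP3, and matrix genes such as FN1, COL1A1 and MFAP5 rose. A gene was called where limma gave a Benjamini-Hochberg adjusted p under 0.05 over all tested clusters together with a fold change over 1.5. By this rule 660 of 23781 clusters (2.78%) were called, 398 of them higher at 24 hr (1.67%) and 262 lower (1.1%). Changes over 2-fold were called for 142 clusters upward and 63 downward, and changes over 4-fold for 26 and 9. The 3 arrays of each time lay apart without overlap in 639 of the called clusters, against 22.6% of all tested clusters. The median change over all clusters was -0.006 on the log2 scale. The preceding step, shNS 8 hr against 0 hr, gave 1112 clusters called higher (4.68%) and 888 called lower (3.73%).

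The count of called genes rested on single arrays. Of the 660 calls, 212 (32.1%) held when each of the 6 arrays was left out in turn. The counts, higher and lower, were 175 and 137 without 24 hr replicate 1, 236 and 154 without 24 hr replicate 2, 185 and 117 without 8 hr replicate 2, and 217 and 151 without 8 hr replicate 3, while 542 clusters were called lower without 8 hr replicate 1. The methods' ANOVA of the 6 arrays, which estimates the spread of each gene from these arrays alone, called 6 clusters higher and 0 lower with adjusted p, among them COL1A1 (adjusted p = 0.0362), and 499 higher and 323 lower with unadjusted p. Genes whose call was lost in this way are named as such below, with the highest adjusted p that the omission of 1 array gave. Signals are log2 values as deposited, array medians of the 6 arrays lay between 6.203 and 6.257, and replicate arrays correlated at 0.992 to 0.997 at 24 hr and 0.989 to 0.994 at 8 hr over genes.

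Early genes fell into classes by what they did next. Of the early rises, 122 clusters went on rising, 53 turned back and 937 had no call in the later step. Of the early falls, 51 went on falling, 11 turned back and 826 had no call. A further 265 clusters rose and 158 fell only in the later step by this rule, with no call by 8 hr. Both steps use the 8 hr arrays, so an error in these arrays moves a gene toward turning back. With early genes taken from shRUNX1 arrays at 8 hr against 0 hr, which the later shNS step does not share, 68 early rises went on, 54 turned back, 33 early falls went on and 7 turned back. These classes also rested on single arrays: without 8 hr replicate 2 they held 45 and 25 early rises and 18 and 5 early falls that went on and turned back, without 24 hr replicate 1 they held 48 and 29 early rises and 22 and 5 early falls, and without 24 hr replicate 2 they held 70 and 34 early rises and 24 and 6 early falls. Without 8 hr replicate 3 they held 47 and 47 early rises and 22 and 8 early falls, so that as many early rises turned back as went on.

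**Figure D1:**
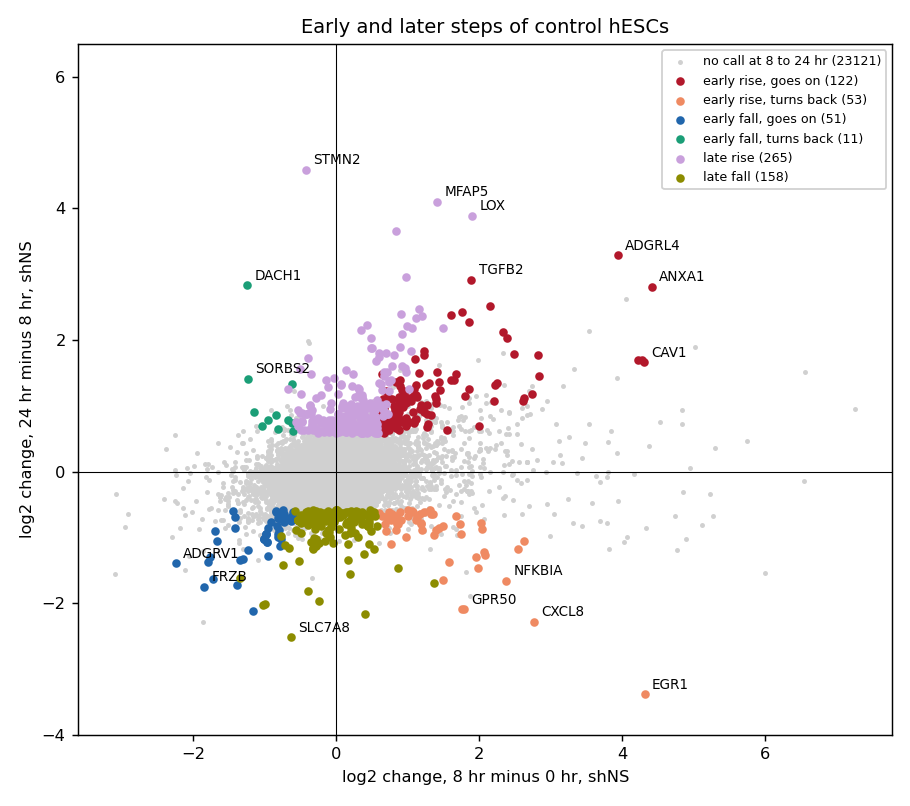
Change of each tested transcript cluster in shNS cells from 0 to 8 hr (x axis, log2) and from 8 to 24 hr (y axis, log2), coloured by class. EGR1 and CXCL8 lie at the lower right, having risen by 4.31 and 2.77 and then changed by -3.38 and -2.28, while ADGRL4 and ANXA1 lie at the upper right with 2 rises each.

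The 53 early rises that turned back had a median early change of 1.2 and a median later change of -0.79 on the log2 scale. The median share of the early rise that was undone by 24 hr was 69.8%, and 36 of the 53 were within 1.5-fold of their 0 hr level at 24 hr. The values of these steps chose the class and are given as a description.

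EGR1, a zinc finger transcription factor and the classic immediate early gene of the serum response, had log2 signals of 7.21, 6.99 and 7.71 at 24 hr and 10.10, 10.84 and 11.12 at 8 hr. Its 0 hr arrays read 6.29, 6.14 and 6.72. The times did not overlap, and all 24 hr arrays stayed above the 0 hr arrays. The later change was -3.38 (SE 0.35, adjusted p = 2.29e-05), the largest fall of all called genes. The remaining distance to 0 hr was 0.92 (adjusted p = 0.0523). EGR1 was 10.4-fold higher at 8 hr than at 24 hr and its call held without any 1 of the 6 arrays.

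CXCL8, the neutrophil chemokine interleukin 8, read 4.76, 5.10 and 5.25 at 24 hr against 6.70, 8.18 and 7.09 at 8 hr. At 0 hr it had been at 4.65, 4.44 and 4.57, so that the 24 hr arrays lay just above the undifferentiated ones and well below the 8 hr ones. The later change was -2.28 (SE 0.27, adjusted p = 0.000107). Its call held without any 1 of the 6 arrays.

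NFKBIA, which binds NF-kB and keeps it in the cytoplasm, read 8.2, 8.27 and 8.69 at 24 hr against 10.26, 10.04 and 9.85 at 8 hr. The 0 hr values were 7.68, 7.56 and 7.77, so NFKBIA had lost most of its rise and was still 0.71 above 0 hr (adjusted p = 0.00123). The later change was -1.66 (SE 0.15, adjusted p = 1.28e-05). TNFAIP3 read 6.60, 6.60 and 6.87 at 24 hr against 8.05, 8.42 and 7.97 at 8 hr, a change of -1.46 (SE 0.16, adjusted p = 4.25e-05). For NFKB1, which encodes the p105 precursor of an NF-kB subunit, the arrays read 8.33, 8.57 and 8.44 at 24 hr against 9.51, 9.79 and 9.20 at 8 hr. NFKB1 changed by -1.05 (SE 0.20, adjusted p = 0.00471) but stayed 1.57 above 0 hr (adjusted p = 7.51e-06), a partial return. The calls of NFKBIA, TNFAIP3 and NFKB1 held without any 1 of the 6 arrays.

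Across the list of immediate early and AP-1 genes, 5 of 27 measured members were called lower and 0 higher, against 1.1% and 1.67% of all tested clusters. All 5, EGR1, ZFP36, IER2, NR4A1 and MCL1, had been called higher by 8 hr, when 16 of the 27 were, against 4.68% of all clusters. ZFP36, which binds AU-rich messenger RNAs and speeds their decay, read 5.46, 4.89 and 5.24 at 24 hr against 6.54, 6.74 and 6.21 at 8 hr, a change of -1.3 (adjusted p = 0.0186). NR4A1, an orphan nuclear receptor, changed by -0.63 (adjusted p = 0.00204) to end within 0.1 of its 0 hr mean. IER2 changed by -0.69 (adjusted p = 0.0152) and MCL1, a survival factor of the BCL2 family, by -0.61 (adjusted p = 0.0413). The calls of ZFP36, IER2, NR4A1 and MCL1 were lost without 8 hr replicate 2 and, except for NR4A1, without at least 1 other array, with adjusted p up to 0.0958, 0.0814, 0.02 and 0.183, NR4A1 then missing the fold limit. JUN and FOSL1, subunits of AP-1 that had risen by 1.74 and 1.53 by 8 hr, changed by 0.08 (adjusted p = 0.939) and 0.09 (adjusted p = 0.927), with overlapping arrays.

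In the list of chemokines, cytokines and NF-kB targets, 6 of 26 measured members were called lower and 1 higher, against 1.1% and 1.67% of all clusters. All 6 had risen by 8 hr. Besides CXCL8, NFKBIA, TNFAIP3 and NFKB1 they were LIF, an interleukin 6 family cytokine, at -0.67 (adjusted p = 0.0131), and PTGS2, the inducible cyclooxygenase, at -0.59 (adjusted p = 0.00823). LIF lost its call without 24 hr replicate 1, 8 hr replicate 2 or 8 hr replicate 3 (adjusted p up to 0.0729), and PTGS2 without 24 hr replicate 1 or 8 hr replicate 2 (up to 0.0619). CXCL6, a chemokine of the same family as CXCL8, went the other way. It read 8.19, 8.34 and 7.66 at 24 hr against 6.92, 6.77 and 6.48 at 8 hr, a further rise of 1.34 (adjusted p = 0.0182) after an early rise of 1.3, and its call was lost in 4 of 6 omissions (without 24 hr replicate 1 or 2 or 8 hr replicate 2 or 3, adjusted p up to 0.0908).

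Other early rises that turned back belonged to neither list. STMN4, a stathmin that binds tubulin, read 5.16, 5.15 and 5.36 at 24 hr against 6.33, 6.80 and 6.64 at 8 hr and changed by -1.37 (adjusted p = 1.28e-05). The collagenase MMP13 changed by -0.78 (adjusted p = 0.00171) and the stromelysin MMP3 by -0.97 (adjusted p = 0.0223), MMP3 with 8 hr arrays spread from 5.12 to 6.73 and a call lost in 4 of 6 omissions (without 24 hr replicate 1 or 3 or 8 hr replicate 2 or 3, adjusted p up to 0.102). STC1, the secreted glycoprotein stanniocalcin, read 9.77, 9.98 and 10.13 at 24 hr against 10.69, 11.82 and 10.90 at 8 hr. Its change of -1.18 (adjusted p = 0.0415) left it 1.36 above 0 hr (adjusted p = 0.00325), and the call was lost without each array but 8 hr replicate 1 (up to 0.236). The growth factor PDGFB was likewise a partial return, with a change of -0.87 (adjusted p = 0.0272) and 1.17 remaining above 0 hr, and its call was lost without 24 hr replicate 1 or 2 or 8 hr replicate 1 or 2 (up to 0.166).

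**Figure D2:**
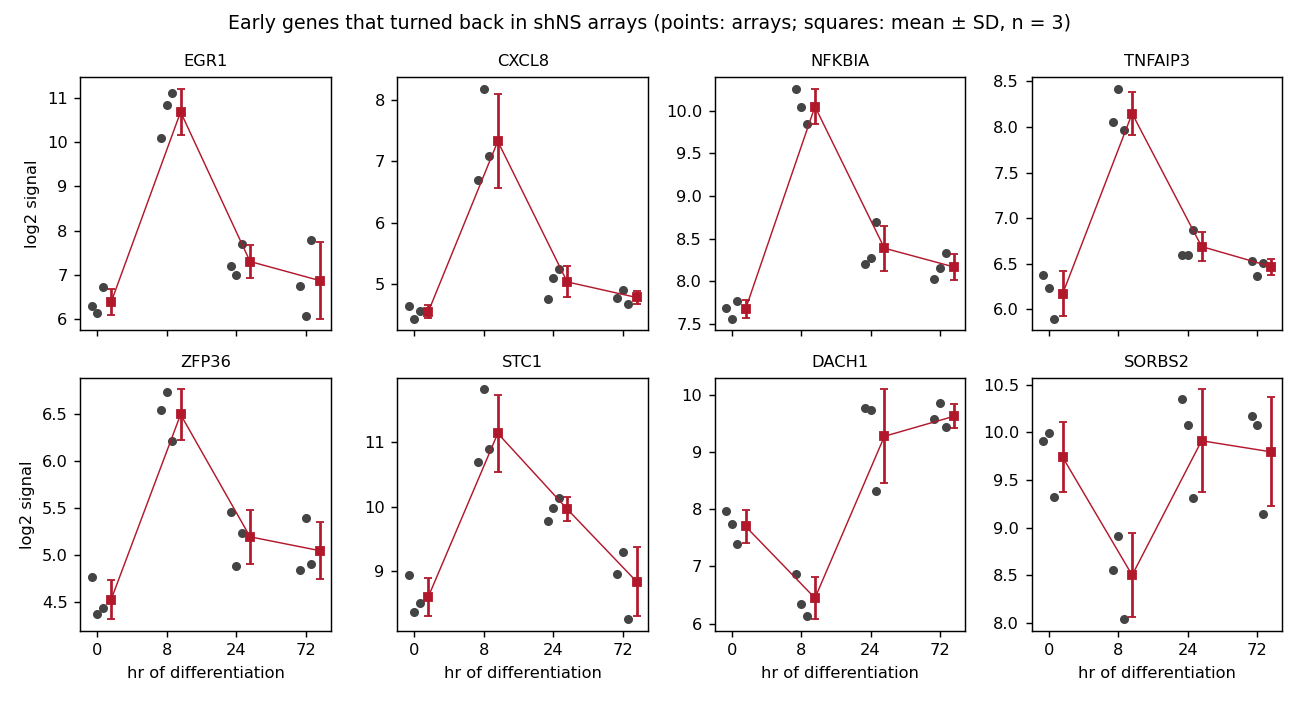
Log2 signal of 8 early genes that turned back in shNS cells at 0, 8, 24 and 72 hr (x axis, times evenly spaced), with points for arrays and squares for the mean ± SD of 3 arrays; each panel has its own y range. EGR1, CXCL8, NFKBIA, TNFAIP3, ZFP36 and STC1 peaked at 8 hr, whereas DACH1 and SORBS2 were lowest at 8 hr.

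The class of early falls that turned back was small, 11 genes, of which 9 were within 1.5-fold of their 0 hr level at 24 hr. DACH1, a transcriptional regulator of the dachshund family, read 9.77, 9.74 and 8.33 at 24 hr against 6.86, 6.34 and 6.14 at 8 hr. It rose by 2.83 (SE 0.36, adjusted p = 0.000239) after an early fall of -1.25, and passed its 0 hr level by 1.58 (adjusted p = 0.00213). MLLT3, a chromatin reader of the super elongation complex, read 7.64, 7.31 and 7.60 at 24 hr against 6.66, 6.51 and 6.63 at 8 hr and rose by 0.91 (adjusted p = 0.000248) to a level that differed from 0 hr by -0.24 (adjusted p = 0.142). Both calls held without any 1 of the 6 arrays.

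NR5A2, a nuclear receptor that can sustain POU5F1 expression in mouse embryonic stem cells, rose by 0.86 (adjusted p = 0.00787), ending 0.02 from 0 hr, and SNX2, a sorting nexin of the retromer, rose by 0.78 (adjusted p = 0.00444). SORBS2, an adaptor of actin fibres, read 10.35, 10.08 and 9.31 at 24 hr against 8.56, 8.91 and 8.04 at 8 hr and rose by 1.41 (adjusted p = 0.0116), a call lost without 24 hr replicate 1 or 2 or 8 hr replicate 3 (adjusted p up to 0.0796). The calls of NR5A2 and SNX2 held without any 1 of the 6 arrays. The dip also held 2 cell cycle genes. KIF20A, a kinesin of late mitosis, rose by 0.79 (adjusted p = 0.0133) and E2F8, a repressor of the E2F family, rose by 0.65 (adjusted p = 0.0396). Their calls were lost without 24 hr replicate 1 or 2 or 8 hr replicate 2 and, for E2F8, 8 hr replicate 3 (up to 0.0909 and 0.182).

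The 122 early rises that went on had median changes of 1 by 8 hr and 1.04 from 8 to 24 hr, which made a median net rise of 2.08 over 0 hr. They named 120 distinct genes. TGFB2, a TGFB ligand active in EMT, read 11.44, 11.25 and 9.77 at 24 hr, 8.58, 8.49 and 6.64 at 8 hr, and 6.05, 6.25 and 5.74 at 0 hr. Replicate 3 was the lowest array at both times, and the times did not overlap. The later change was 2.92 (SE 0.56, adjusted p = 0.00455) after 1.89 by 8 hr, and 72 hr differed from 24 hr by -0.11 (adjusted p = 0.985). TGFB2 held its call without any 1 of the 6 arrays. With only the 6 arrays of the step in the fit the call was lost, with the adjusted p at 0.261 or below in every alternative. TGFB1 changed by 0.66 (adjusted p = 0.0905) and TGFB3 by -0.11 (adjusted p = 0.593). TGFB1 was called with only the 6 arrays of the step (adjusted p = 0.0333), with the 12 shNS arrays (0.0136) and with array weights (0.00443), and by the methods' ANOVA with unadjusted p. Of the 28 measured TGFB ligands, receptors and SMADs, TGFB2 and the latent TGFB binding protein LTBP2 (0.96, adjusted p = 0.00221) were called higher and none lower. Over all clusters 1.67% were called higher and 1.1% lower.

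ANXA1, a calcium-dependent phospholipid-binding annexin, read 15.25, 15.12 and 14.86 at 24 hr against 13.26, 12.47 and 11.09 at 8 hr. It rose by 2.81 (SE 0.63, adjusted p = 0.0125) after 4.41 by 8 hr, with 8 hr arrays spread over more than 2 log2 units and a call lost without 24 hr replicate 1 or 8 hr replicate 3 (up to 0.0853). ADGRL4, an adhesion G protein-coupled receptor studied in endothelium, read 14.29, 14.06 and 13.57 at 24 hr against 11.54, 10.59 and 9.92 at 8 hr and rose by 3.29 (adjusted p = 0.00837), with 0.052 without 8 hr replicate 3. MYOF, a ferlin of membrane repair, read 10.89, 10.88 and 10.77 at 24 hr against 8.76, 8.22 and 8.02 at 8 hr and rose by 2.51 (adjusted p = 0.0041), in all 6 omissions.

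The actin monomer-binding peptide TMSB10 read 15.24, 15.22 and 14.96 at 24 hr against 14.20, 13.96 and 13.55 at 8 hr, a rise of 1.24 (adjusted p = 0.00213), and the calcium buffer CALB2 rose by 2.38 (adjusted p = 0.00273). Both held in all 6 omissions. CAV1, the coat protein of caveolae, rose by 1.66 (adjusted p = 0.0337) after 4.30 by 8 hr, a call lost in all omissions but that of 8 hr replicate 1 (up to 0.147). ANXA2 was called together with its near-identical pseudogenes ANXA2P1, ANXA2P2 and ANXA2P3, whose signals cannot be told apart from it here. The ANXA2 call was lost without 24 hr replicate 1 or 2 or 8 hr replicate 2 or 3 (up to 0.0853) and that of ANXA2P2 without 24 hr replicate 1 or 8 hr replicate 2 or 3 (up to 0.0647).

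Of the actin machinery, 29 of 40 measured members had been called higher by 8 hr, and from 8 to 24 hr only TMSB10, TLN1 and TPM2 were called higher, all 3 as continued rises. Over all clusters 4.68% were called higher by 8 hr and 1.67% in the later step. The list's median change was 0.28. The focal adhesion protein TLN1 (0.88, adjusted p = 0.0158) and the tropomyosin TPM2 (0.68, adjusted p = 0.0163) lost their calls without 24 hr replicate 1 or 2 or 8 hr replicate 2 or 3 (adjusted p up to 0.1 and 0.099). Among 24 YAP target genes, 15 had been called higher by 8 hr and 4 were called higher in the later step, TGFB2, MYOF, NT5E and RBMS3, against the same shares of all clusters.

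The 51 early falls that went on had median changes of -0.92 and -0.89, a median net fall of -1.81. They named 44 distinct genes, because HCG23 was counted once for each of its haplotype copies of chromosome 6, and 3 of its copies lost their call without 8 hr replicate 2 (adjusted p = 0.0533). FABP7, a fatty acid-binding protein of neural progenitors, read 6.24, 6.10 and 5.53 at 24 hr, 8.17, 8.03 and 8.05 at 8 hr, and 9.17, 8.94 and 9.60 at 0 hr. The groups did not overlap, and the later change was -2.12 (SE 0.21, adjusted p = 1.33e-05). MEGF10, a phagocytic receptor, read 7.32, 7.12 and 7.88 at 24 hr against 8.41, 8.76 and 9.19 at 8 hr and changed by -1.34 (adjusted p = 0.00394). Both calls held without any 1 of the 6 arrays.

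FRZB, a secreted WNT antagonist, read 8.63, 7.98 and 7.23 at 24 hr against 9.72, 9.89 and 9.51 at 8 hr and changed by -1.75 (adjusted p = 0.0478), losing its call in each of the 6 omissions (up to 0.157). SORL1, a sorting receptor, changed by -1.72 (adjusted p = 0.021), the adhesion receptor ADGRV1 by -1.39 (adjusted p = 0.00967), and the receptor tyrosine phosphatase PTPRZ1 by -1.38 (adjusted p = 0.026). Their calls were lost without 8 hr replicate 2 or 3 and, for SORL1 and PTPRZ1, also 24 hr replicate 1 or 2 (up to 0.133, 0.0662 and 0.149). POLR3G, the RNA polymerase III subunit of undifferentiated cells, read 11.89, 11.91 and 12.27 at 24 hr against 12.59, 13.09 and 13.96 at 8 hr, a change of -1.19 (adjusted p = 0.02) lost without 24 hr replicate 1 or 2 or 8 hr replicate 2 or 3 (up to 0.13).

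**Figure D3:**
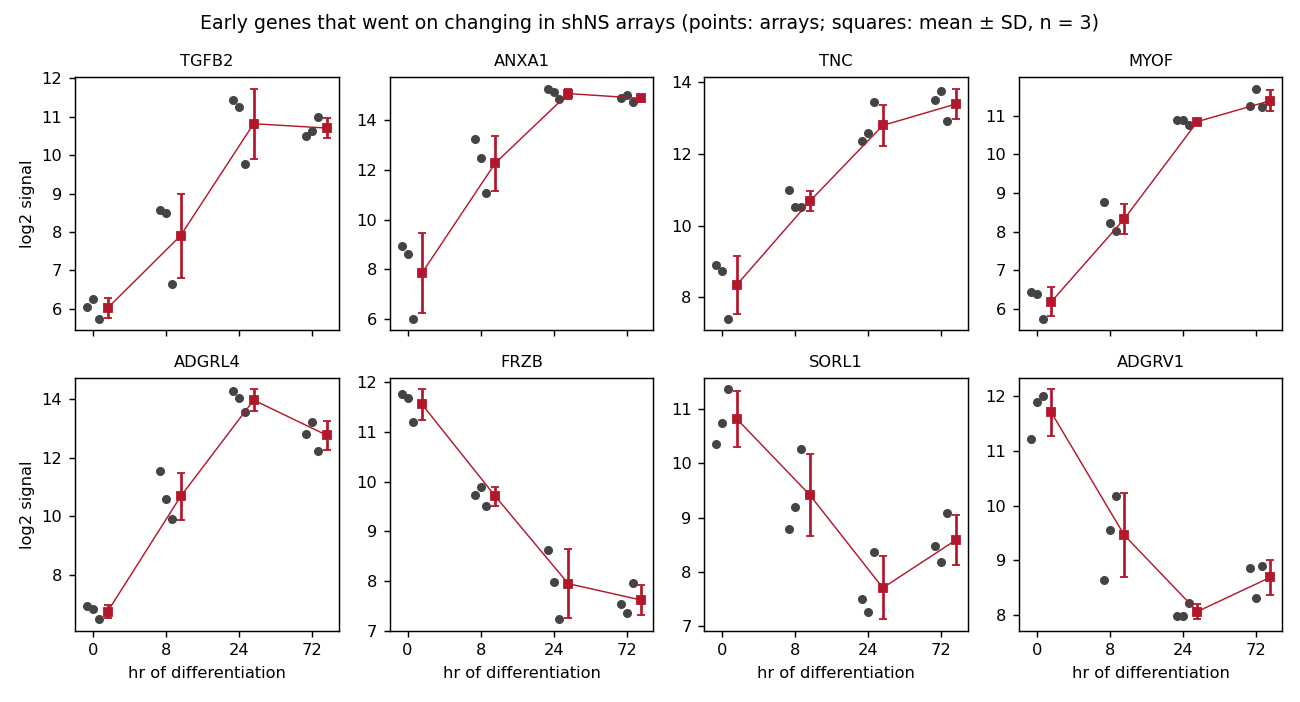
Log2 signal of 8 early genes that went on changing in shNS cells at 0, 8, 24 and 72 hr (x axis, times evenly spaced), with points for arrays and squares for the mean ± SD of 3 arrays; each panel has its own y range. TGFB2, ANXA1, TNC, MYOF and ADGRL4 rose in both steps and FRZB, SORL1 and ADGRV1 fell in both, and TNC and FRZB lost their call in each of the 6 omissions of 1 array.

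Of the 8 largest rises of the step, 5 were late ones, with no call by 8 hr. STMN2, a stathmin of growing neurites, read 12.38, 12.65 and 11.41 at 24 hr against 7.74, 7.33 and 7.61 at 8 hr, which overlapped the 0 hr arrays (7.55, 7.91 and 8.50). Its rise of 4.59 (SE 0.52, adjusted p = 8.34e-05) was the largest of all called genes, 24.1-fold. MFAP5, a microfibril protein, read 11.74, 10.88 and 10.74 at 24 hr against 7.93, 7.05 and 6.07 at 8 hr and rose by 4.10 (adjusted p = 0.00171). IGFBP7, a secreted binding protein of insulin-like growth factors, read 10.20, 10.15 and 11.26 at 24 hr against 7.03, 6.95 and 6.63 at 8 hr and rose by 3.66 (adjusted p = 0.0013). NT5E, the mesenchymal surface enzyme CD73, read 8.88, 9.45 and 9.49 at 24 hr against 6.44, 6.18 and 6.32 at 8 hr and rose by 2.96 (adjusted p = 0.00273). The calls of these 4 genes held in all 6 omissions. LOX, which crosslinks collagen and elastin, read 10.86, 11.60 and 11.87 at 24 hr against 7.84, 7.5 and 7.32 at 8 hr and rose by 3.89 (SE 0.94, adjusted p = 0.0193), a call lost without 24 hr replicate 1 or 2 or 8 hr replicate 2 or 3 (up to 0.0741) although the times lay far apart.

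Matrix genes were called higher more often than all clusters, though many of these calls rested on single arrays. Of 30 measured mesenchymal and matrix genes, 10 were called higher and 0 lower, against 1.67% and 1.1% of all clusters, and 24 had a positive change, with a median of 0.39. Among the 10, FN1 and NT5E held in all 6 omissions, while LOX, POSTN, TNC, FBN1, CDH2, LOXL2 and MMP2 lost their calls in at least 1. The remaining called member was SPARC, whose omissions are not given here. FBN1 lost its call without each array but 8 hr replicate 1 (adjusted p up to 0.177). LOXL2 lost its call without 24 hr replicate 1 or 8 hr replicate 2 or 3 (up to 0.0556). Fibronectin, FN1, read 13.78, 13.80 and 13.73 at 24 hr against 11.78, 11.59 and 11.67 at 8 hr and rose by 2.09 (SE 0.40, adjusted p = 0.00455) in all 6 omissions. Periostin, POSTN, rose by 2.23 (adjusted p = 0.0226, up to 0.126 on leaving out 24 hr replicate 1 or 2 or 8 hr replicate 2 or 3), and tenascin C, TNC, by 2.12 (adjusted p = 0.0497, above 0.05 in each of the 6 omissions, up to 0.156). The mesenchymal intermediate filament VIM, which had risen by 1.79 by 8 hr, changed by 0.43 (adjusted p = 0.288), with 24 hr arrays at 14.78, 14.74 and 14.79 above the 8 hr arrays at 14.55, 14.37 and 14.09.

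Of 22 collagens, 5 were called higher and 1 lower, against 1.67% and 1.1% of all clusters. In this list 13 had a positive and 9 a negative change, with a median of 0.1. COL1A1 read 9.77, 9.86 and 9.82 at 24 hr against 8.56, 8.48 and 8.46 at 8 hr, a rise of 1.32 (SE 0.25, adjusted p = 0.00444). COL8A1 rose by 1.80 (adjusted p = 0.00394) and COL5A2 by 1.80 (adjusted p = 0.00636), and these 3 held in all 6 omissions. COL1A2 rose by 1.73 (adjusted p = 0.0192), but not without 24 hr replicate 1 or 2 or 8 hr replicate 1 or 2 (up to 0.0971). COL14A1, a fibril-associated collagen, changed by -0.73 (adjusted p = 0.0213), a call lost without 24 hr replicate 1 or 2 or 8 hr replicate 2 or 3 (up to 0.135).

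Of 24 matrix proteases and inhibitors, 6 were called higher and 2, MMP3 and MMP13, lower, against 1.67% and 1.1% of all clusters. By 8 hr 15 had been called higher, against 4.68% of all clusters. The aggrecanases ADAMTS9 (2.36, adjusted p = 0.0298) and ADAMTS5 (2.18, adjusted p = 0.047) had the largest rises, with calls lost in 5 and 6 of the 6 omissions, ADAMTS9 keeping its call only without 8 hr replicate 1 (up to 0.113 and 0.185). ADAM12 rose by 1.34 (adjusted p = 0.00286) in all 6 omissions. MMP2, a gelatinase, read 12.18, 11.96 and 11.65 at 24 hr against 10.83, 10.48 and 10.41 at 8 hr and rose by 1.36 (adjusted p = 0.00737, 0.0501 without 24 hr replicate 1). Among 20 integrins, 3 were called higher and 0 lower, against the same later shares of all clusters. The collagen receptor subunits ITGA1 (1.25, adjusted p = 0.000582) and ITGA11 (1.03, adjusted p = 0.00213) rose in all 6 omissions, and ITGA4 rose by 0.59 (adjusted p = 0.0261, up to 0.122 in the 5 omissions other than 8 hr replicate 3).

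**Figure D4:**
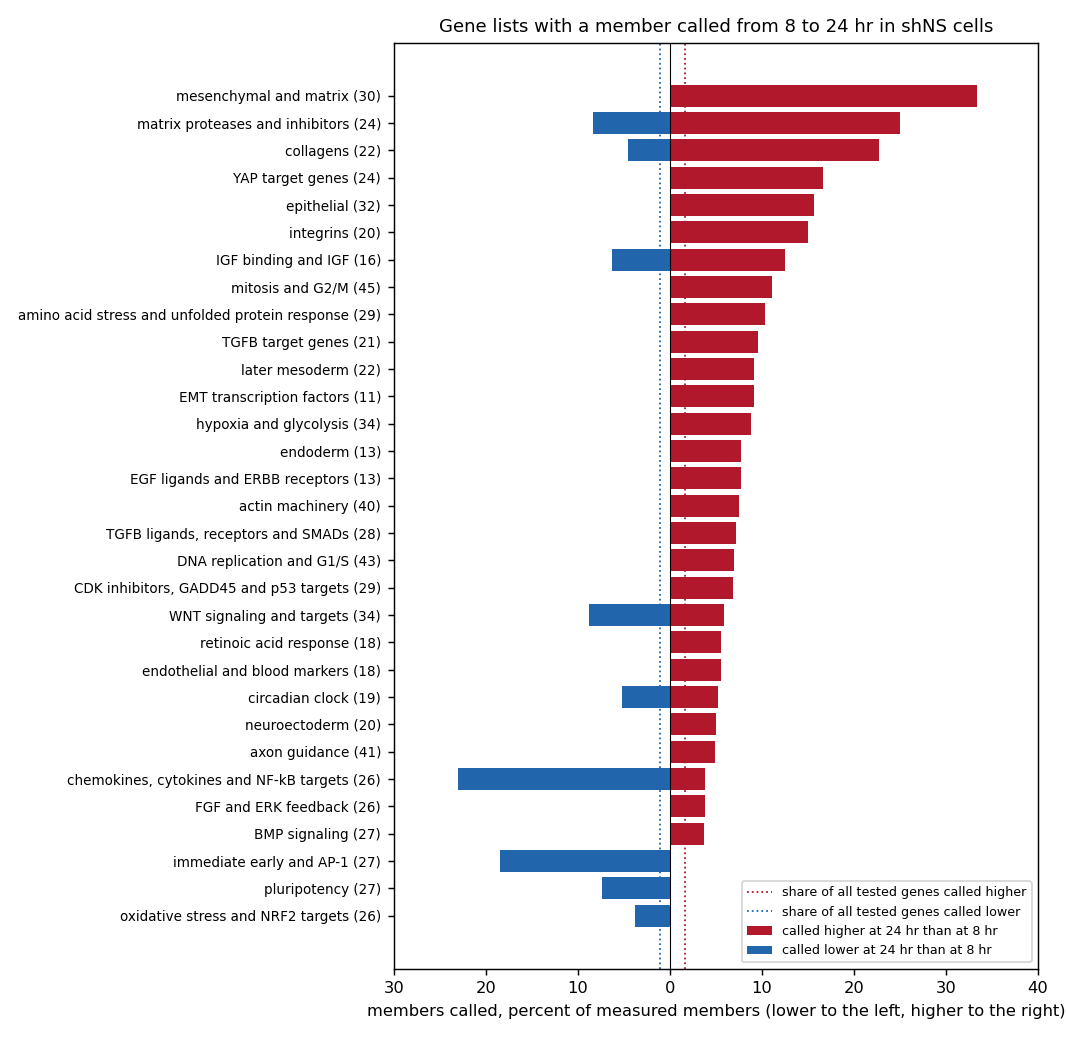
Share of measured members of each gene list (number measured in brackets) called higher at 24 hr than at 8 hr (to the right) or lower (to the left) in shNS cells, in percent, for lists with at least 1 called member; dotted lines give the shares over all tested clusters, 1.67% higher and 1.1% lower. The mesenchymal and matrix list has 10 of 30 members called higher, and the immediate early and the chemokine lists have 5 of 27 and 6 of 26 called lower.

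Of 32 epithelial genes measured, 5 were called higher and 0 lower, against 1.67% and 1.1% of all clusters. Over the whole list 13 had a positive and 19 a negative change, with a median of -0.017. By 8 hr 6 had been called higher and 0 lower, against 4.68% and 3.73% of all clusters. The called ones were the simple keratins KRT8 and KRT18 and the desmosomal genes PKP2, DSP and JUP. KRT18 read 13.77, 13.60 and 13.40 at 24 hr against 12.70, 12.27 and 12.55 at 8 hr and rose by 1.08 (adjusted p = 0.0105, above 0.05 without 24 hr replicate 1 or 8 hr replicate 2, up to 0.0668). KRT8 rose by 1.15 (adjusted p = 0.00903, up to 0.0593 on the same omissions). JUP, plakoglobin, rose by 0.92 (adjusted p = 0.00475) in all 6 omissions. PKP2 rose by 1.07 (adjusted p = 0.0182, up to 0.097 without 24 hr replicate 1 or 8 hr replicate 2 or 3), and DSP by 0.96 (adjusted p = 0.0278, up to 0.138 without each array but 8 hr replicate 1).

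CDH1, E-cadherin, read 7.84, 7.95 and 9.96 at 24 hr against 9.22, 9.67 and 11.71 at 8 hr. Its change of -1.62 (SE 0.59) did not pass the test (adjusted p = 0.126), and replicate 3 was about 2 log2 units above the other arrays at both times, so that the times overlapped. CDH1 was called lower with a replicate block (adjusted p = 0.00596), with array weights (0.0114) and without 24 hr replicate 3 (0.0249), while the adjusted p reached 0.549 without 8 hr replicate 3. CLDN7 changed by -0.85 (adjusted p = 0.155), EPCAM by -0.84 (adjusted p = 0.209) and OCLN by 0.02 (adjusted p = 0.989). N-cadherin, CDH2, read 15.14, 15.01 and 15.21 at 24 hr against 14.38, 14.25 and 14.09 at 8 hr and rose by 0.88 (adjusted p = 0.0415), a call lost without each array but 8 hr replicate 1 (up to 0.158). Of 11 EMT transcription factors 1, TWIST1, was called higher and 0 lower, against 1.67% and 1.1% of all clusters. TWIST1 read 6.96, 6.93 and 6.76 at 24 hr against 6.24, 5.88 and 5.73 at 8 hr. Its rise of 0.94 (adjusted p = 0.0105) lost its call without 24 hr replicate 1 or 8 hr replicate 2 or 3 (up to 0.0615). SNAI1 and SNAI2, called higher by 8 hr as were 4.68% of all clusters, changed by -0.35 (adjusted p = 0.443) and 0.14 (adjusted p = 0.79).

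Pluripotency genes were checked as the defining markers of the cells. Of 27 measured, CRIPTO and TERF1 were called lower and 0 higher, against 1.1% and 1.67% of all clusters. The list's median change was -0.14, and 8 had been called lower by 8 hr, against 3.73% of all clusters. CRIPTO, a co-receptor of NODAL, read 10.97, 10.86 and 11.70 at 24 hr against 12.66, 13.01 and 13.91 at 8 hr. Its change of -2.01 (SE 0.38, adjusted p = 0.00401) held in all 6 omissions, and CRIPTO was 1.78 higher again at 72 hr than at 24 hr (adjusted p = 0.0141). TERF1, a telomere-binding shelterin protein, changed by -1.61 (adjusted p = 0.0495), with a call lost without each array but 8 hr replicate 1 (up to 0.26).

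The core factors stayed at high signal. The brightest POU5F1 cluster read 11.49, 11.62 and 11.64 at 24 hr against 11.73, 11.84 and 12.09 at 8 hr and changed by -0.30 (adjusted p = 0.206). SOX2 changed by -0.29 (adjusted p = 0.735). NANOG read 11.56, 12.10 and 11.26 at 24 hr against 10.06, 11.01 and 11.03 at 8 hr, a change of 0.94 (adjusted p = 0.17), without overlap and without a call. Of 19 mesendoderm and primitive streak genes 0 were called from 8 to 24 hr, against 2.78% of all clusters. With 19 genes, 0 cannot be told apart from that share. TBXT, brachyury, read 5.25, 5.35 and 5.24 at 24 hr against 5.17, 5.18 and 5.29 at 8 hr, and MIXL1 and MESP1 changed by -0.12 (adjusted p = 0.947) and 0.03 (adjusted p = 0.918), all with signals below the median of 6.251 over all tested values. Of the other defining streak markers, GSC changed by -0.04 (adjusted p = 0.769) at signals of 4.92 to 4.98, and EOMES by 0.07 (adjusted p = 0.95) at 6.84 to 7.5. Of the whole list, 12 had a positive later change, and CER1 and WNT3 had been called higher by 8 hr, against 4.68% of all clusters. CER1, a secreted antagonist of NODAL and BMP, had risen by 5.12 and then read 10.53, 9.86 and 10.16 at 24 hr against 11.61, 11.35 and 10.02 at 8 hr, a change of -0.81 (adjusted p = 0.381). The WNT ligand WNT3 had risen by 0.7 and then changed by 0.4 (adjusted p = 0.274). Of the 5 defining markers of the primitive streak, in a course that the series labels as early mesendoderm, TBXT, MIXL1, MESP1 and GSC were below the median of all values at 24 hr and 8 hr and EOMES was above it.

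Of 22 later mesoderm genes, BMP4 and TWIST1 were called higher, against 1.67% of all clusters. BMP4, a ligand of mesoderm and extraembryonic fates, read 8.40, 7.23 and 7.0 at 24 hr against 6.44, 5.92 and 6.09 at 8 hr and rose by 1.39 (adjusted p = 0.00431) in all 6 omissions. Single members were called higher in the endoderm (PRDM1, 0.91, adjusted p = 0.0175), neuroectoderm (SOX3, 0.87, adjusted p = 0.00335) and endothelial and blood lists (FLI1, 1.13, adjusted p = 0.00534), and 0 members in the trophoblast and amnion and the muscle lists. Changes were negative in 4 of 13 endoderm, 14 of 20 neuroectoderm and 10 of 18 endothelial and blood genes. By 8 hr 7 of the neuroectoderm genes had been called lower, against 3.73% of all clusters in that step. The SOX3 means, 5.89 at 24 hr and 5.02 at 8 hr, lay below the median of 6.251 over all tested values. SOX3 and FLI1 held in all 6 omissions, and PRDM1 lost its call without 24 hr replicate 1 or 8 hr replicate 2 or 3 (up to 0.102).

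Of 45 mitosis and G2/M genes, 5 were called higher and 0 lower from 8 to 24 hr, against 1.67% and 1.1% of all clusters. In the list 36 had a positive change, with a median of 0.25. By 8 hr 8 had been called lower and 1 higher, against 3.73% and 4.68% of all clusters. The mitotic kinase PLK1 read 13.34, 13.24 and 13.46 at 24 hr against 12.45, 12.03 and 12.53 at 8 hr and rose by 1.01 (SE 0.12, adjusted p = 0.000187). AURKA, the kinase of spindle poles, rose by 0.87 (adjusted p = 0.000137) and CDC20, an activator of the anaphase-promoting complex, by 0.74 (adjusted p = 0.00394). PLK1, AURKA and CDC20 held in all 6 omissions. TPX2, the activator of AURKA, rose by 0.62 (adjusted p = 0.00479) and fell short of the fold limit without 8 hr replicate 2. KIF20A was the fifth called member and the one whose early fall had been called. Among 43 genes of DNA replication and G1/S, CCND1, SLBP and E2F8 were called higher and the median was -0.0016. Cyclin D1, CCND1, rose by 1.02 (adjusted p = 0.0352, up to 0.177 on leaving out 24 hr replicate 1 or 2 or 8 hr replicate 2 or 3), and SLBP, the histone messenger RNA-binding protein, by 0.68 (adjusted p = 0.00506), under the fold limit without 8 hr replicate 3.

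Metabolic and signaling lists are given beside the 1.67% of all clusters called higher and the 1.1% called lower. Of 32 genes of cholesterol and fatty acid synthesis, 18 had been called lower by 8 hr, against 3.73% of all clusters in that earlier step. In the later step 0 of them were called, 26 had a negative change, and the median was -0.29. Glycolysis genes PFKP (1.11, adjusted p = 0.0125) and PKM (0.99, adjusted p = 0.00495) and the glucose transporter SLC2A1 (1.25, adjusted p = 0.0451) were the 3 called of 34. The calls of PFKP and SLC2A1 were lost in 4 and 5 omissions, PFKP keeping its call without 24 hr replicate 3 or 8 hr replicate 1 and SLC2A1 only without 8 hr replicate 3 (up to 0.0656 and 0.179). In the WNT list of 34, FRZB, FZD3 and WIF1 were called lower and CCND1 and DKK2 higher, FZD3 and DKK2 losing their calls without 24 hr replicate 1 or 2 or 8 hr replicate 2 or 3 and FZD3 also without 24 hr replicate 3 (adjusted p up to 0.173 and 0.247). WIF1, a secreted WNT inhibitor, read 5.41, 5.49 and 5.66 at 24 hr against 6.44, 6.62 and 6.46 at 8 hr and changed by -0.99 (adjusted p = 1.33e-05) in all 6 omissions, both levels being near the median of all values. The metallothionein MT1X, at 11.14, 10.36 and 11.16 at 24 hr against 12.62, 12.79 and 12.34 at 8 hr, was the 1 called of 26 oxidative stress genes, with a change of -1.69 (adjusted p = 0.0407) that was above 0.05 in each of the 6 omissions (up to 0.182).

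Of 29 genes of amino acid stress and the unfolded protein response, 3 enzymes of serine and glycine synthesis were called higher and 0 lower. Over all clusters 1.67% were called higher and 1.1% lower. SHMT2 rose by 0.77 (adjusted p = 0.0148), PSAT1 by 0.74 (adjusted p = 0.0226) and PSPH by 0.62 (adjusted p = 0.0364), and their calls were lost in 2, 4 and 5 of the 6 omissions (up to 0.0846, 0.148 and 0.161). SHMT2 and PSAT1 lost theirs without 24 hr replicate 3 or 8 hr replicate 2 and PSAT1 also without replicate 1 of either time, while PSPH held only without 8 hr replicate 3. Of 16 genes of the IGF list, IGFBP7 and IGFBP6 were called higher and STC1 lower, against the same shares of all clusters. IGFBP6, another binding protein, rose by 0.85 (adjusted p = 0.0346), a call lost without 24 hr replicate 2 or 3 or 8 hr replicate 1 or 2 (up to 0.145).

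Ribosomal protein, ribosome biogenesis, oxidative phosphorylation, interferon, Notch, heat shock, HOX, glucocorticoid and DNA methylation lists had 0 called members, against 2.78% of all clusters. The largest fall with no call by 8 hr was that of SLC7A8, an amino acid transporter. It read 9.97, 9.78 and 10.81 at 24 hr against 12.15, 12.81 and 13.16 at 8 hr and changed by -2.52 (SE 0.43, adjusted p = 0.00243) in all 6 omissions. The cluster of RUNX1, which it shares with a neighbouring transcript and which lies outside the tested set, read 6.62, 6.55 and 6.73 at 24 hr against 6.46, 6.65 and 6.28 at 8 hr, a change of 0.16 (adjusted p = 0.724).

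Whether the control step differed from that of RUNX1-depleted cells was tested as the difference of the 2 steps, which share no arrays. No cluster of 23781 was called in limma (0%), 745 had an unadjusted p under 0.05 (3.13%), and the smallest adjusted p was 1. The methods' ANOVA, by its unadjusted p, gave 64. Without 8 hr replicate 1 of the shNS cells, 1 cluster was called (RNA5SP348, -2.84, adjusted p = 0.0277).

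The shRUNX1 step on its own gave 238 called clusters (1%), 133 higher and 105 lower. Of these, 110 rises were also called in shNS cells, 82.7% of the shRUNX1 rises and 27.6% of the shNS rises, and 62 falls were, 59% of the shRUNX1 falls and 23.7% of the shNS falls. None was called in opposite directions. All 398 shNS rises had a positive and all 262 shNS falls a negative change in shRUNX1 cells. Over the shNS rises the median change was 0.63 in shRUNX1 cells and 0.86 in shNS cells, where they had been chosen, and over the shRUNX1 rises it was 0.88 in shRUNX1 cells and 0.95 in shNS cells. Over the falls the medians were -0.53 in shRUNX1 and -0.76 in shNS cells for those chosen in shNS cells, and -0.87 in shRUNX1 and -0.78 in shNS cells for those chosen in shRUNX1 cells. The correlation of the 2 changes was 0.75 over genes, which are not independent replicates.

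The same classes were followed in the shRUNX1 arrays, whose levels were not used to choose them, although all 24 arrays set the spread by which the calls were made. Over all 23781 clusters the shRUNX1 step had 1% called, 133 higher and 105 lower, beside which the counts called below stand. All 53 early rises that turned back had a negative change from 8 to 24 hr in shRUNX1 cells, with a median of -0.66, and 23 of them were called lower there. EGR1 changed by -3.23 (adjusted p = 0.000112), CXCL8 by -1.79 (adjusted p = 0.00184), NFKBIA by -1.3 (adjusted p = 0.00026) and TNFAIP3 by -1.3 (adjusted p = 0.000347). All 122 early rises that went on had a positive change in shRUNX1 cells, with a median of 0.75, and 40 were called. All 51 early falls that went on changed by less than 0 there (median -0.49, 11 called), and all 11 that turned back by more than 0 (median 0.48, 4 called). TGFB2 rose by 1.92 in shRUNX1 cells without a call (adjusted p = 0.0856), and the difference from the shNS step was not called.

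**Figure D5:**
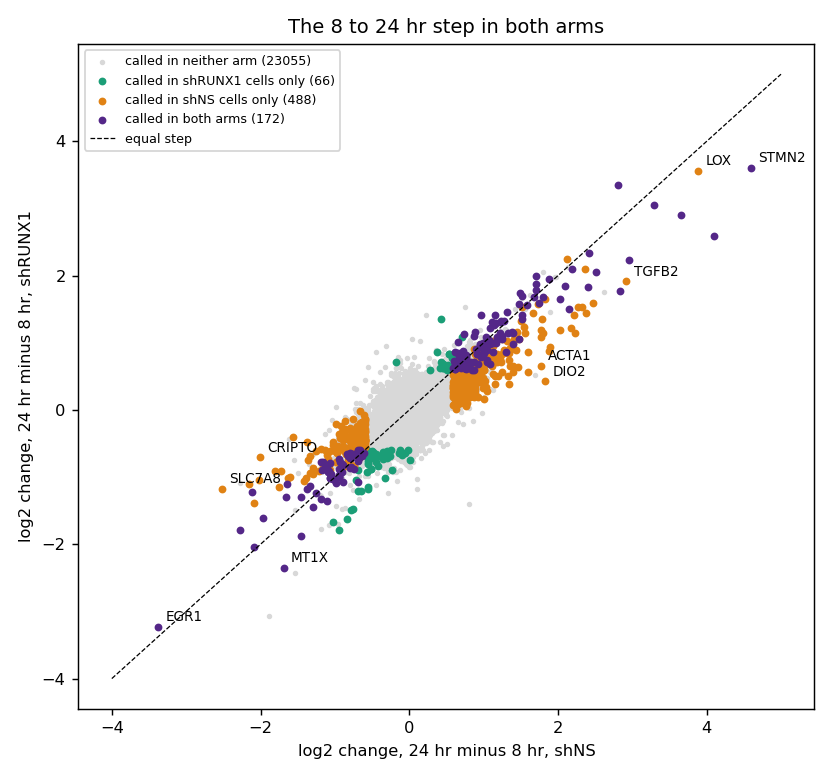
Change from 8 to 24 hr of each tested transcript cluster in shNS cells (x axis, log2) and in shRUNX1 cells (y axis, log2), coloured by the arms in which it was called; the dashed line marks equal steps. STMN2 and EGR1 lie near the ends of the line, and no cluster was called for the difference between the arms.

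The promoters of the classes were described by the NF-kB, SRF and RUNX motifs. Of the 53 turned-back rises, 31 had a promoter in the table, and 9 of these (29.0%) held the NF-kB motif, against 18.6% of the tested genes with a promoter. The share was 24.7% among 93 promoters of rises that went on, 30.3% among 33 promoters of falls that went on and 0 of 8 among falls that turned back. It was 16.5% among 194 promoters of late rises and 20.2% among 99 promoters of late falls. The SRF motif was held by 1 of the 31 turned-back promoters (3.23%), that of EGR1, and by 1.12% of the tested genes. Its share was 2.15% in rises that went on, 3.09% in late rises, 1.01% in late falls and 0 in both classes of early falls. The RUNX motif was held by 9.01% of the tested genes and by 0 of the 31 turned-back promoters. Its share was 2.15% in rises that went on, 9.09% in falls that went on, 12.5% of 8 in falls that turned back, 7.22% in late rises and 7.07% in late falls. No test was made of these shares.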

How the data were processed

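Total RNA of 24 samples, in 8 groups of 3, was measured on Affymetrix arrays. The authors corrected the signals by signal-space transformation and by leveling for GC content, per the methods, and their processing notes name RMA, Expression Console and version 1.0.0.234 of the Transcriptome Analysis Console. The deposited values, log2 signals per transcript cluster, were taken without further normalization. The number of arrays limits the precision. Of 67528 clusters, the 23781 with 1 symbol in the platform's gene table were tested (21497 matched to RefSeq). Lists used the brightest cluster of a gene. RUNX1 shares its cluster with another transcript and was fitted among all clusters.

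The model was limma 3.58.1 under R 4.3.3 (lmFit, then eBayes with an intensity trend), with 8 group means and 16 residual degrees of freedom, and all tests were two-sided with Benjamini-Hochberg adjustment. Standard errors come from this fit. The study calls its replicates independent experiments. The fits were tested on simulated data. Alternatives were another normalization, centring, filter, set of arrays, test, threshold, a replicate block, omission of each array, and, added after seeing the data, the brightest cluster of each gene. An exact permutation test of 3 arrays against 3 cannot go below p = 0.1. Named genes were the largest rises and falls and the largest members of each class, among called genes whose arrays did not overlap. The called members of each list with the largest steps were named without that condition. The markers of the study and further members of called lists were also named. The comparison, genes and gene lists were chosen with earlier results of these data known. The study's uninfected cells are outside the comparison.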

Additional observations from a re-analysis of the deposited data

How the results depend on the processing

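Counts below are given for clusters called higher and lower from 8 to 24 hr, then for early rises that went on and turned back and early falls that went on and turned back (398, 262, 122, 53, 51 and 11 as reported). Quantile normalization, median centring, the filter on dim clusters, eBayes without a trend, the brightest cluster of each gene and the later step without a fold limit kept every count within 1.5-fold. Array weights gave 651, 694, 241, 124, 141 and 24, no fold limit 728, 548, 203, 116, 132 and 34, and a fold over 2 gave 142, 63, 47, 13, 14 and 2. The methods' ANOVA with adjusted p gave 6, 0, 4, 0, 0 and 0, and with unadjusted p 229 early rises that went on and 64 calls for the difference between arms. With only the 6 arrays of the step 117 were called lower. Early rises that went on numbered 189 with the 9 arrays of both steps and 184 with the 12 shNS arrays, and 20 early falls turned back among all transcript clusters. With early genes from shRUNX1 arrays, 68 rises and 33 falls went on and 7 falls turned back. The cause of these shifts was not tested.

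Same-numbered arrays at 24 and 8 hr had deviations that correlated at 0.311, 0.0717 and 0.482, and arrays of different numbers at -0.416 to 0.268. Replicates 1 and 3 at 24 hr correlated most with their own number at 8 hr, and replicate 2 did not. The main fit did not take the numbers as pairs, so it ignores any pairing by experiment. A replicate block, by number or by experiment letter, gave 505 higher and 369 lower, with 199 and 79 early rises and 82 and 11 early falls that went on and turned back, and 0 calls between arms. Leaving out 1 array gave 175 to 473 higher, 117 to 542 lower, 45 to 117 and 25 to 78 early rises that went on and turned back, 18 to 61 and 5 to 15 early falls, and 0 to 1 calls between arms. No result changed direction. Of the named genes, 94 lost their call under the methods' ANOVA with adjusted p, 35 with only the 6 arrays and 4 under quantile normalization. Among those lost with only the 6 arrays were TGFB2, BMP4, MEGF10 and ITGA11, which held in every omission of 1 array. Calls were gained for TGFB1 and CDH1 as given above and, with array weights, for SNAI1 (-0.77, adjusted p = 0.0101) and NANOG (0.92, adjusted p = 0.0446). RUNX2 passed with no fold limit. Signals below the median of all values, as for TBXT and MESP1, limit what a small change can show.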
